A study of Mus musculus with 27 samples.

Results

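The comparison described here is that of mouse splenic B cells stimulated for 24 h through CD40 in the presence of both IL-4 and IL-21 with the same cells stimulated through CD40 alone. Its members were the 3 libraries labelled with the cytokine combination and the 3 labelled with anti-CD40 only, 6 of the 27 libraries of the study. The cells were primary naive B cells from the spleens of wild-type mice, so no allele or transgene separates the groups. All 24 h cultures received anti-CD40 at 1 µg/mL (clone HM40-3), an agonist antibody that stands in for CD40 ligand on a helper T cell. IL-4 was given at 12.5 ng/mL and IL-21 at 50 ng/mL. To ask whether the combination did more than the cytokines do separately, its effect was set against the sum of the effects of IL-4 alone and IL-21 alone, each measured in 3 further 24 h libraries with anti-CD40. The remaining libraries hold uncultured naive cells and the same 4 stimulations at 6 h. The labels leave unsaid whether a replicate is its own mouse or its own culture, so p-values measure only the spread between these libraries, which may be technical.

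IL-4 and IL-21 are made by follicular helper T cells and share the common gamma chain of their receptors. IL-4 acts mainly through STAT6 and is known in B cells for raising CD23 and MHC class II and for directing switching to IgG1 and IgE. IL-21 acts mainly through STAT3, drives both germinal centre and plasma cell differentiation, and can also promote death of B cells that lack other signals.

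The values are TPM, the share of a transcript in its library corrected for length, which keep no record of sequencing depth, so the depth behind low values is unknown. A gene was tested if 3 or more of the 27 libraries had it at 1 TPM or above, which left 12147 of 35604. Differences are given on the log2(TPM + 1) scale with their standard errors from limma, a linear model fitted across all genes and all 27 libraries, and the threshold for a call was an adjusted p of 0.05. This scale understates changes of genes with low TPM. The IL-4 group was the least even at 24 h: mitochondrially encoded transcripts made up 7.888% of the listed sum in its replicate 1 and 11.63% and 10.97% in the others. In the anti-CD40 libraries this share was 8.515% to 11.84%, and with both cytokines 6.969% to 8.036%. Its part in the differences below was not tested. By median-of-ratios size factor, a measure of library scale, IL-4 replicates 2 and 3 stood apart instead, at 0.7012 and 0.6013. Replicate 1 was at 1.116, and the 24 h libraries of the other groups were at 0.9261 to 1.481. The main counts of departures from the sum are given with and without replicate 1, and neither set is taken as the cleaner.

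The libraries carried B cell transcripts, and 7 of 7 B cell markers were tested. Their summed level was 3390 to 3760 TPM with anti-CD40 alone and 1870 to 1940 TPM with both cytokines; Ms4a1, Cd79a and Blk were lower and the other 4 were not called. Cd3d, Cd3e and Cd3g, which define T cells, were at 0.6341 TPM or less in each of the 6 libraries, while Thy1 and Lat, 2 of the 3 T cell markers tested, were higher. The T cell list's sum was 29.8 to 42.8 TPM with anti-CD40 and 85 to 101 TPM with both cytokines. The macrophage list fell from a sum of 31.2 to 42.1 TPM to one of 2.14 to 2.66 TPM, most of it Mpeg1, with 3 of 3 tested members lower, while Csf1r, Cd14 and Fcgr1 were at 0.2244 TPM or less. The neutrophil genes S100a8, S100a9 and Ly6g and the dendritic cell gene Clec9a were at 0 in all 6. Csf3r, also on the neutrophil list, was at 0 in all 3 anti-CD40 libraries and at 0.607, 0.4061 and 0.4916 TPM with both, below the level for testing. The part of any of these in the results below was not tested. Erythroid and platelet markers summed to 22.9 to 29.6 TPM with anti-CD40 and 7 to 19.9 TPM with both. In bulk RNA, fewer cells of a type and less RNA per cell cannot be told apart.

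Adding both cytokines changed 2924 of 12147 genes at 24 h, 24.1% of those tested. The rises numbered 1758 (14.5%) and the falls 1166 (9.6%). A change of at least 2-fold was found for 1521 (12.5%), of which 843 rose (6.94%) and 678 fell (5.58%). Among genes with at least 5 TPM and no overlap between the groups, the largest rises were of Slpi, Socs3, Nfil3 and Cish. The largest falls were of Cd36, Cr2, Fam129c and Il9r. The 12 rises and 12 falls described below were all chosen this way, so their lack of overlap is no further evidence. The median difference over all tested genes was 0.09. The share of called genes that were higher depended on scaling: it was 60.1% as deposited and 44.6% once transcripts of the mitochondrial genome, ribosomal proteins and pseudogenes had been removed and TPM recomputed, where the median was -0.016.

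Slpi, which encodes a secreted inhibitor of leukocyte proteases, rose the most. Its level was 0.154, 0 and 0.0708 TPM in the anti-CD40 libraries and 651, 772 and 680.0 TPM with both cytokines. All 3 combination libraries lay far above all 3 controls, a log2 difference of 9.35 ± 0.32 (SE, n = 3 per group, limma adjusted p = 1.62e-15). With IL-4 alone it reached a mean of 6.08 ± 2.03 TPM and with IL-21 alone 17.1 ± 1.65 TPM (SD, n = 3 each). Both single-cytokine effects on Slpi were called as well.

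Feedback inhibitors of JAK-STAT signalling followed. Socs3, an inhibitor induced by STAT3, was at 1.14, 0.551 and 1.77 TPM with anti-CD40 and at 456, 434 and 414 TPM with both cytokines, without overlap (7.70 ± 0.27). IL-21 alone gave a mean of 653 ± 131 TPM, and the combination did not differ from it at the threshold (log2 difference -0.57, adjusted p = 0.284). Cish, an inhibitor induced through STAT5, went from 0.151, 0.139 and 0.270 TPM to 113, 109 and 111 TPM (6.56 ± 0.31). Here the larger single effect was that of IL-4, with a mean of 51.0 ± 32.5 TPM against 0.806 ± 0.374 TPM with IL-21. Socs1 rose by 5.33 ± 0.32, with 3.08 for IL-4 and 2.53 for IL-21. All 3 inhibitors were also called in at least 1 single-cytokine comparison.

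Nfil3, a basic leucine zipper repressor, was at 0.401, 0.440 and 0.567 TPM in the controls and at 248, 251 and 245 TPM with both cytokines (7.41 ± 0.28). The germline and switched transcripts of IgG1, counted under Ighg1, rose from 2.06, 1.13 and 3.05 TPM to 200.2, 201 and 206 TPM (6.09 ± 0.42). IL-4 alone gave 250.1, 96.9 and 62.0 TPM of Ighg1, a spread that contains the combination values. Thy1, a surface glycoprotein best known from T cells, went from 0.0214, 0.328 and 0 TPM to 69.7, 67.9 and 59.4 TPM (5.91 ± 0.35), and IL-4 alone also raised it. Ido1, the tryptophan-degrading enzyme indoleamine 2,3-dioxygenase 1, rose from 0.109, 0.321 and 0.10045 TPM to 49.0, 42.4 and 46.7 TPM (5.32 ± 0.17). The groups did not overlap for any of these 4 genes, as the choice of genes required.

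The other members of the 12 largest rises were B3gnt7, a glycosyltransferase (5.87 ± 0.45), Dhrs3, a retinaldehyde reductase (4.90 ± 0.28), Pltp, the phospholipid transfer protein (4.80 ± 0.31), and the agouti gene a, a secreted melanocortin antagonist. Agouti was listed at 0 in all 3 anti-CD40 libraries and at 35.3, 33.2 and 34.7 TPM with both cytokines, so no fold change is given for it.

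Among the falls, Cd36, the scavenger receptor for lipids, dropped from 159.7, 165 and 164 TPM to 2.94, 1.19 and 2.87 TPM (-5.67 ± 0.40, adjusted p = 3.5e-10). Cr2, the complement receptor CD21 that marks mature B cells, went from 134, 116 and 171 TPM to 3.29, 1.49 and 1.86 TPM (-5.48 ± 0.31). Ltb, lymphotoxin beta, a TNF family ligand that B cells use to organise follicles, went from 784, 645 and 745 TPM to 25.7, 22.4 and 24.6 TPM (-4.84 ± 0.23). None of these groups overlapped, which was again a condition of the choice. Ltb was reduced to a mean of 92.4 ± 13.6 TPM by IL-4 alone and to 420.5 ± 17.6 TPM by IL-21 alone, so the combination gave the lowest level of the 4 cultures.

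Icosl, the ligand of the T cell costimulator ICOS, fell from 66.9, 66.4 and 101 TPM to 3.56, 3.05 and 3.69 TPM (-4.13 ± 0.37). Il12a, the p35 subunit of IL-12 and IL-35, fell from 43.2, 35.7 and 45.6 TPM to 1.72, 0.852 and 1.79 TPM (-4.13 ± 0.24). For both genes the combination could not be distinguished from IL-4 alone, with log2 differences of -0.32 (adjusted p = 0.541) and -0.02 (adjusted p = 0.972). The other 7 of the 12 largest falls were Fam129c, Il9r, Nebl, Ms4a4c, Pecam1, Trim7 and Pdcd4, with differences from -4.99 to -4.04. Of the 12, Nebl, an actin-binding protein, was the one without a called IL-4 effect (-0.56, adjusted p = 0.172), against -3.51 for IL-21.

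**Figure D1:**
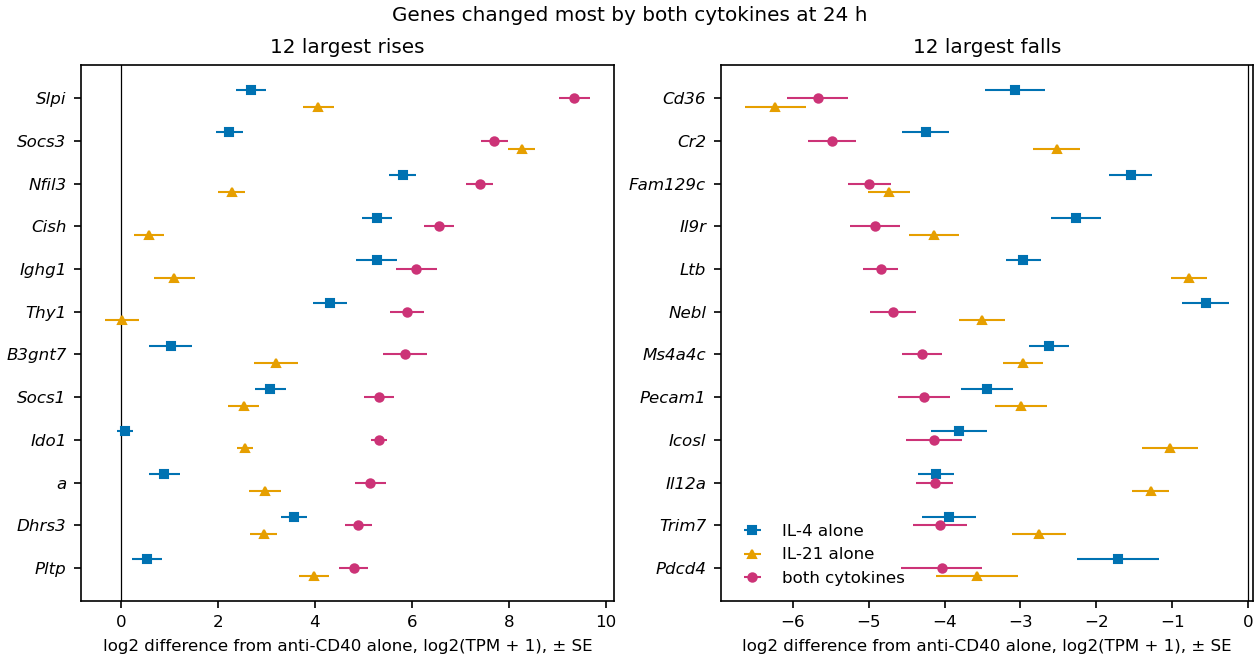
Log2 difference from anti-CD40 alone at 24 h on the log2(TPM + 1) scale, with standard errors, for the 12 largest rises (left) and 12 largest falls (right): circles are both cytokines, squares IL-4 alone and triangles IL-21 alone. Slpi stands furthest out at 9.35 with both cytokines against 2.69 and 4.08 with the single cytokines, while for Socs3, Cd36 and Pltp the IL-21 point lies within 0.81 of that of the combination, and for Il12a, Icosl and Trim7 the IL-4 point lies within 0.32 of it; the points of a rest on control libraries all listed at 0 and are no bound.

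The sum of the 2 single-cytokine effects was then compared with the combined effect by an interaction contrast, which is 0 where the log2 effect of both equals that sum. The contrast uses the same 3 anti-CD40 libraries in every term. It was called for 705 genes (5.8%), 404 above the sum (3.33%) and 301 below it (2.48%). Among genes changed at least 2-fold, more departures were short of the sum than beyond it. Among the 843 genes at least 2-fold higher, 75 exceeded the sum, 125 fell short of it and for 643 no departure was called. Among the 678 genes at least 2-fold lower, 3 went beyond the sum, 156 fell short of it and 519 had no call. Falls are bounded on this scale, since no library can be below 0: for 80 of the 156, and for 165 of the 678, the summed effects pointed to a value below 0. That bound does not apply to the 125 rises that fell short, where this was so for 0 genes. Over all called departures it was so for 107 of the 404 above the sum and for 0 of the 301 below it.

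These departures rest in part on the IL-4 group. Without its replicate 1 the count was 2460 in place of 705. That fit keeps IL-4 replicates 2 and 3, which had the lowest size factors at 24 h, so it is not a cleaner result. For rises of at least 2-fold the balance then turned, with 153 beyond the sum and 150 short of it, while for falls it was 7 and 309. With only the 12 libraries of the 4 compared groups in the fit the count was 289. Rises and falls together, genes short of the sum outnumbered genes beyond it under each of the 21 alternative settings counted, from 140 against 41 to 522 against 175. The median departure over all tested genes was 0.19 as deposited and -0.022 after median-of-ratios rescaling, where 44.3% of the 1344 called departures were above the sum in place of 57.3%.

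**Figure D2:**
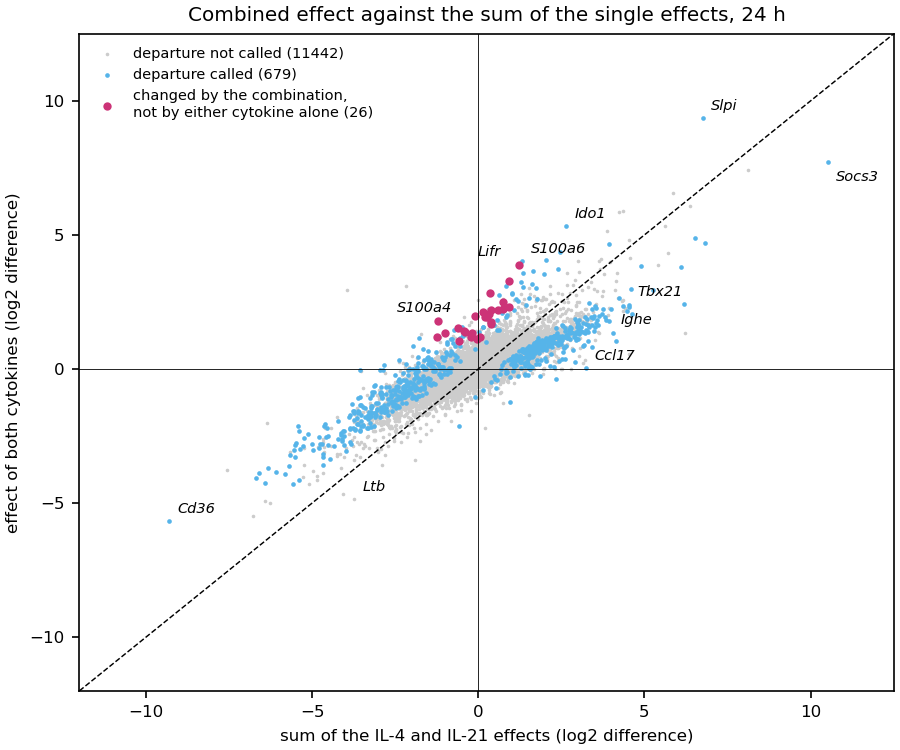
Each point is 1 of 12147 genes: the horizontal axis is the IL-4 effect plus the IL-21 effect and the vertical axis the effect of both cytokines, all as log2 differences from the same 3 anti-CD40 libraries at 24 h, and the dashed line marks equality. Grey points have no called departure, blue points do, and the 26 pink points changed with the combination and with neither cytokine alone; Slpi, S100a6, Ido1, S100a4 and Lifr lie above the line, Socs3, Tbx21, Ighe and Ccl17 below it.

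Genes changed by the combination and by neither cytokine alone were defined by 5 conditions. The combined effect had to be called and at least 2-fold, the departure from the sum called in the same direction, and the combination called against anti-CD40 with IL-4 and against anti-CD40 with IL-21 in that direction. Each single effect had to be uncalled and under 2-fold on the log2(TPM + 1) scale. For genes near 0 that limit lets larger ratios of TPM through. Lifr, for example, passed with means of 0.0655 TPM with anti-CD40 and 0.779 TPM with IL-21. Of the 843 rises, 75 met the condition on the sum, 73 also that against IL-4 (21.8% of all tested genes were higher there), 57 also that against IL-21 (2.22%) and 26 all 5. Of the 678 falls the numbers were 3, 2, 1 and 0. Without IL-4 replicate 1 they were 153, 149, 103 and 32 for rises and 7, 5, 4 and 1 for falls. The 26 genes, all higher, were 0.214% of those tested. All 26 exceeded the sum of the single-cytokine differences in plain TPM. The conditions above nearly fix that outcome in advance, so it is no further support. An uncalled single effect does not show that a cytokine had none.

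In 25 of the 26 genes the lowest combination library was above the highest of the 9 other 24 h libraries, Gm43550 being the exception; this follows in part from how the genes were chosen. The 12 named genes, chosen by the size of the departure among those with at least 5 TPM, were S100a4, Lifr, Ptgs1, Ccl24, Wdfy2, Abcg1, Cdc42se2, Rnf19b, Klf2, Lgals3, Ncoa3 and Nabp1.

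RefSeq promoters (GRCm38.p6, 250 bases before to 50 after the annotated start) were found for 18 of the 26 genes, 21 promoters in all. They are shown for the first 4 genes in order of the departure that have one (Ccl24 and Abcg1 are named only), to show the start regions of the genes with the largest departures, and for Lgals3, chosen after its motif matches were seen. All 6 sequences lie on the plus strand and read 5′ to 3′. Capitals mark a match to a spaced palindrome of the STAT type.
S100a4, chr3:90603520-90603819: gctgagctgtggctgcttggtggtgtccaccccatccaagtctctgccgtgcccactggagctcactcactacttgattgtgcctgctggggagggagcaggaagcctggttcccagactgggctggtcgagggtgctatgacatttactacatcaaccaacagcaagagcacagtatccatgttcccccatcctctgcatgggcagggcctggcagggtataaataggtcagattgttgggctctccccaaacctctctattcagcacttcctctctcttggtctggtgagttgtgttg
Lifr, upstream start, chr15:7129322-7129621: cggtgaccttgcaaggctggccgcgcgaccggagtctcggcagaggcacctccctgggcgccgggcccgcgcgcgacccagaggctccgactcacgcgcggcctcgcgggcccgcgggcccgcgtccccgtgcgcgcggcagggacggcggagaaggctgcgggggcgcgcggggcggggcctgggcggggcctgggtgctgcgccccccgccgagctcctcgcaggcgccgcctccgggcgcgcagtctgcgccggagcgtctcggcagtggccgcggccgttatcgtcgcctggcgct
Lifr, downstream start, chr15:7140292-7140591: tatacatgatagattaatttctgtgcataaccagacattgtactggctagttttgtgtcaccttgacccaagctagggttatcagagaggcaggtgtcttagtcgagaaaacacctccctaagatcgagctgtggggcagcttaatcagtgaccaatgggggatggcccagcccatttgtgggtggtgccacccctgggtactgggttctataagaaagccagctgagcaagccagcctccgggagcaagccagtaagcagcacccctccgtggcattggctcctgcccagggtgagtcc
Ptgs1, chr2:36230176-36230475: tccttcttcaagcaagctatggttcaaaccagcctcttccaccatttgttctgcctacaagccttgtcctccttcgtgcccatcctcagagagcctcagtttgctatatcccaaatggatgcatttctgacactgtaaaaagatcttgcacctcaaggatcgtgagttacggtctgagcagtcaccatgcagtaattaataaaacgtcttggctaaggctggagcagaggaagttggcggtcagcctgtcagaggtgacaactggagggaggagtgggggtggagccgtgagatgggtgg
Wdfy2, chr14:62837440-62837739: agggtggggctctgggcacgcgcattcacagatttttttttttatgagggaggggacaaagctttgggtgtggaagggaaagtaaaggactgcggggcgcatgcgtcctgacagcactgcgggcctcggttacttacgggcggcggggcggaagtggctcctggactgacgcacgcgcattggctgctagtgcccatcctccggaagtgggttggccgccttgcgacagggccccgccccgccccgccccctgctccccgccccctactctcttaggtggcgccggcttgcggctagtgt
Lgals3, chr14:47373610-47373909: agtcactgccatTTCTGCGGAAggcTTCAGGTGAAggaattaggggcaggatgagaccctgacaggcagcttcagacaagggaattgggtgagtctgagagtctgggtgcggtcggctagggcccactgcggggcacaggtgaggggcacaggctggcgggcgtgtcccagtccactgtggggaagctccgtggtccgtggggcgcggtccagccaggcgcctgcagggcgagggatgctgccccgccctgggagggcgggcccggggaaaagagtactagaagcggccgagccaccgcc

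On both strands 3 motifs were searched: TTCNNNGAA, the spacing most STAT dimers bind, TTCNNNNGAA, the wider spacing that STAT6 prefers, and TGANTCA, the AP-1 site also used by BATF complexes. TTCNNNGAA was in 3 of the 21 promoters (14.3%) and in 8.3% of all 32851 promoters of that length. TTCNNNNGAA was in 2 of 21 (9.52%) and in 6.95% of all, and TGANTCA in 0 of 21 and 7.81% of all. The 2 matches in the Lgals3 promoter, TTCTGCGGAA and TTCAGGTGAA, begin 238 and 225 bases before the start. No match was present in the S100a4, Lifr, Ptgs1 and Wdfy2 windows, which says only that these letters are not there.

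S100a4, a calcium-binding protein linked to cell motility (chr3:90603771-90606045), was at 18.4, 18.4 and 18.8 TPM with anti-CD40. With IL-4 it was at 6.65, 15.9 and 13.9 TPM, with IL-21 at 11.5, 9.75 and 16.3 TPM, and with both at 63.3, 64.7 and 73.0 TPM. Each single-cytokine library lay below every anti-CD40 library, and every combination library lay above them. The combined effect was 1.80 ± 0.27 and the departure from the sum 3.01 ± 0.38 (limma adjusted p = 4.13e-05).

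Lgals3, the secreted lectin galectin-3, was at 3.79, 2.95 and 2.77 TPM with anti-CD40, and at means of 3.84 ± 0.854 TPM with IL-4 and 5.09 ± 1.45 TPM with IL-21 (SD, n = 3). With both cytokines it was at 24.4, 23.0 and 20.0 TPM, above all 9 other libraries (departure 1.76 ± 0.32, adjusted p = 0.00144). Ccl24, the eosinophil chemokine eotaxin-2, was listed at 0 in all 3 anti-CD40 libraries and in 2 of the 3 IL-21 libraries, the third being at 0.936 TPM. It was at 0.484, 0.629 and 0.497 TPM with IL-4 and at 8.54, 6.69 and 11.8 TPM with both. Every combination library of Ccl24 lay above all other 24 h libraries.

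Ptgs1 encodes cyclooxygenase-1, the first enzyme of prostaglandin synthesis. It was at 0.00634, 0 and 0 TPM with anti-CD40, at 0.288 TPM or less in every single-cytokine library, and at 5.40, 7.03 and 5.99 TPM with both (departure 2.46 ± 0.23, adjusted p = 9.08e-07). Abcg1, an exporter of cellular cholesterol, was at 0.703, 3.26 and 1.47 TPM with anti-CD40 and at 7.34, 4.98 and 7.63 TPM with both (departure 2.15 ± 0.39). Its means were 1.45 ± 0.579 TPM with IL-4 and 0.863 ± 0.278 TPM with IL-21. Lifr, the receptor for leukaemia inhibitory factor, was at 0.0201, 0.102 and 0.0740 TPM with anti-CD40 and at 10.5, 26.1 and 11.5 TPM with both. The combination replicates of Lifr were uneven, and the smallest was still above the highest single-cytokine value, 1.03 TPM. Lifr was at 1.03, 0.189 and 0.386 TPM with IL-4 and at 0.488, 1.02 and 0.833 TPM with IL-21. Neither cytokine alone overlapped the anti-CD40 libraries, but neither effect was called on this scale (0.49 and 0.73, limma adjusted p = 0.205 and 0.069).

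Among the more abundant of the 26, Rnf19b, a ubiquitin ligase, was at 55.2, 48.1 and 68.5 TPM with anti-CD40 and at 237, 263 and 257 TPM with both (departure 1.99 ± 0.38). Its IL-4 libraries were uneven, at 129, 61.8 and 46.9 TPM, and its IL-21 libraries were at 47.5, 62.3 and 40.4 TPM. Klf2, a transcription factor of lymphocyte quiescence and trafficking, was at 23.8, 22.5 and 27.2 TPM with anti-CD40 and at 124, 112 and 116 TPM with both (departure 1.85 ± 0.45, adjusted p = 0.0154). IL-21 alone gave 53.5, 44.8 and 35.2 TPM of Klf2, which did not overlap the controls but was not called (0.82, adjusted p = 0.0669). Nabp1, a single-stranded DNA-binding protein of the damage response, was at 19.5, 17.3 and 20.0 TPM with anti-CD40 and at 65.3, 80.3 and 80.3 TPM with both (departure 1.74 ± 0.25). Zbp1, a sensor of Z-form nucleic acids named here because it met the conditions most often, rose from 10.2, 8.43 and 12.03 TPM to 26.9, 31.0 and 24.6 TPM.

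The remaining 3 named genes were Wdfy2, Cdc42se2 and Ncoa3, with combined effects of 1.33, 1.99 and 1.37. Zbp1, Hhat, Hlx, Parm1, Lilr4b, Il12rb1, Fam83f, Arl4c, Fhad1, Nupr1, Trim46, Fbxo30, Gm43550 and Gm15754 completed the 26. Departures over the 26 ranged from 1.13 to 3.01. Membership was not equally firm. Zbp1 met the conditions again under all 23 alternative settings, Abcg1, Hhat, Lgals3, Parm1, Ptgs1 and Rnf19b under 22, and 16 of the 26 under at least 75% of them. Ncoa3, Trim46, Hlx, Nupr1 and Fhad1 met them under fewer than 50%. The 23 settings include the sum in plain TPM, which the conditions nearly fix and which all 26 passed. Of the 12 named genes, Lifr (limma adjusted p = 0.096), Ccl24 (0.234) and Cdc42se2 (0.181) lost the call of the departure with a pseudocount of 0.1. With only the compared groups fitted, Ncoa3 (0.164), Cdc42se2 (0.116) and Klf2 (0.101) lost it. Others of the 26 lost it under these settings too. All conditions were met again by 13 of the 26 with the pseudocount of 0.1 and by 15 with only the compared groups fitted. Without IL-4 replicate 1 the conditions were met by 33 genes, 32 higher and 1 lower, 21 of them among the 26.

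**Figure D3:**
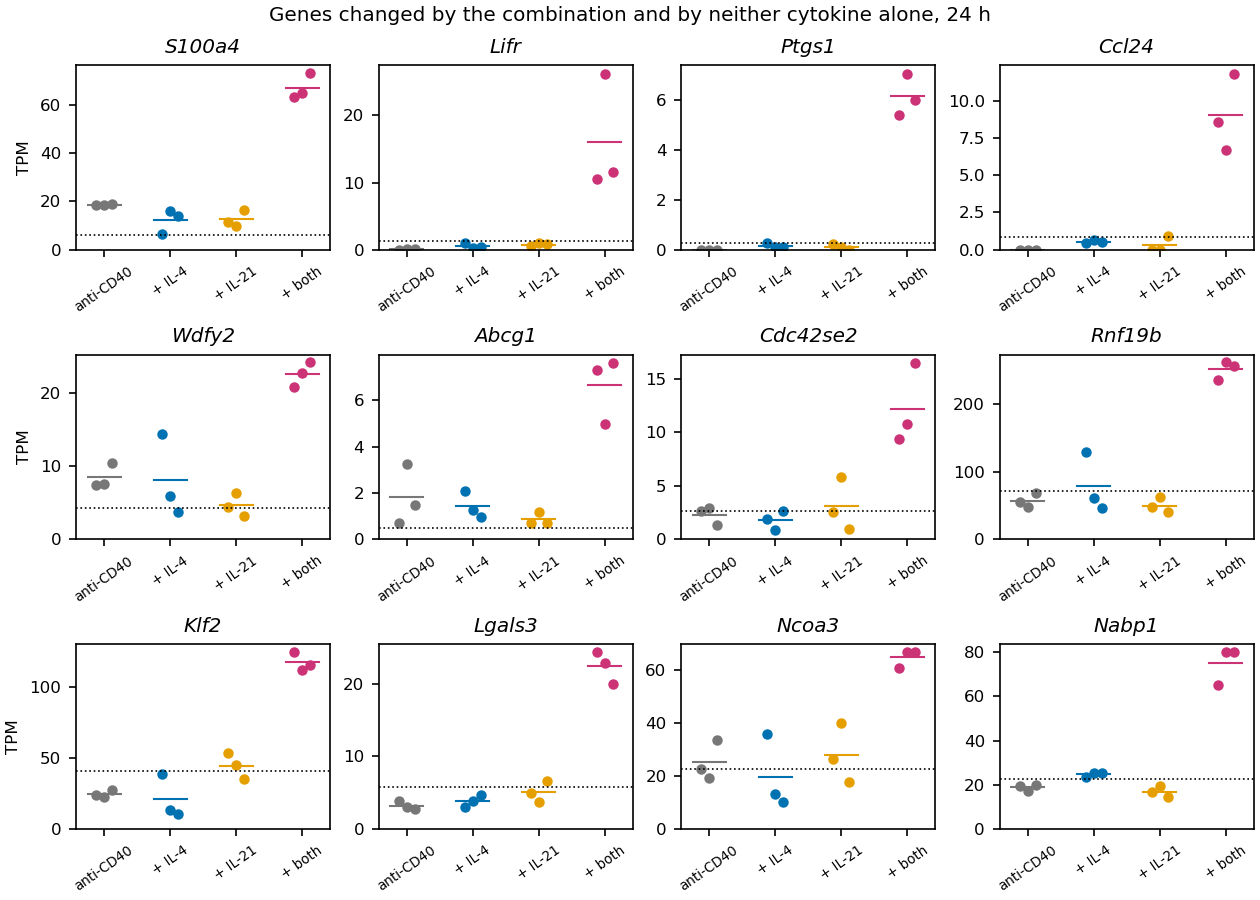
TPM of the 12 named genes in each of the 12 stimulated 24 h libraries, 3 points per culture, with the mean as a short line and the level expected from adding the 2 single-cytokine differences to the anti-CD40 mean in plain TPM as a dotted line; axes are linear and start at 0. In every panel the 3 points with both cytokines lie above the other 9 and above the dotted line, which follows largely from how the genes were chosen. The points of Lifr with both cytokines run from 10.5 to 26.1 TPM.

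A further 32 genes exceeded each single cytokine and the sum while at least 1 single effect was called; without IL-4 replicate 1 this held for 71 rises and 3 falls. Of these, 31 were higher and 1, Xrcc5, a subunit of the Ku DNA repair complex, was lower. Of the 31, 12 were raised by IL-4 with no call for IL-21, 9 by IL-21 with no call for IL-4, and 5 by each, against 8.28% and 17.8% of all tested genes higher with IL-4 and with IL-21. Of the other 5, 3 were lowered by IL-4 with no call for IL-21. S100a6 was lowered by IL-4 and raised by IL-21, and Timd2 was raised by IL-4 and lowered by IL-21. Of all tested genes, 23.1% were lower with IL-4 and 6.33% with IL-21. The rule required at least 1 called single effect, so these shares over all tested genes are not a matched background. Slpi, with a departure of 2.59 ± 0.45 (adjusted p = 0.001), Ido1 (2.68 ± 0.24) and S100a6 (2.68 ± 0.34) were among the 32.

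S100a6, a calcium-binding protein encoded at chr3:90612882-90624181 near S100a4, was at 9.72, 8.36 and 8.61 TPM with anti-CD40 and at 177, 151 and 148 TPM with both cytokines. IL-4 alone gave less, 7.06, 4.93 and 3.88 TPM, and IL-21 alone more, 50.5, 29.7 and 39.0 TPM, and none of the 4 cultures overlapped. Ido2, the paralogue of Ido1 and next to it on chromosome 8, was at 0.0160, 0.122 and 0 TPM with anti-CD40 and at 17.2, 16.2 and 16.3 TPM with both (departure 2.02). IL-4 changed neither enzyme at the threshold, with 0.247 ± 0.0948 TPM for Ido1 and 0.200 ± 0.0404 TPM for Ido2. IL-21 raised both, to 5.96 ± 0.874 TPM and 2.97 ± 1.58 TPM. For this pair of enzymes, IL-4 thus had no called effect without IL-21, and the level with both was above that with IL-21 alone (Ido1 2.76, adjusted p = 1.04e-10).

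Lgals1, Btnl1 and Bhlha15 were picked from the 32 after their values were seen. Lgals1, the lectin galectin-1, rose from 29.8, 29.1 and 25.5 TPM to 276, 226 and 248 TPM, with a mean of 72.9 ± 13.6 TPM for IL-21 and 19.9 ± 3.65 TPM for IL-4. Btnl1, a butyrophilin-like surface protein, was called with IL-4 alone and reached 28.7, 29.5 and 30.7 TPM from 0.484, 0.388 and 0.563 TPM. Bhlha15, the secretory cell transcription factor MIST1, rose from 0.146, 0.0371 and 0.188 TPM to 5.35, 5.15 and 4.26 TPM. All 3 genes were without overlap between the combination and anti-CD40.

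Departures above the sum also arose where 1 or both cytokines alone lowered a gene and the combination was not called. Tnfaip3, the NF-kB inhibitor A20, was at 19.5, 16.9 and 22.0 TPM with anti-CD40 and at 16.3, 21.4 and 19.6 TPM with both, ranges that overlap (-0.03 ± 0.41, adjusted p = 0.982). Each cytokine alone lowered it, IL-4 to 10.6, 5.20 and 3.03 TPM and IL-21 to 5.71, 8.57 and 1.37 TPM (departure 3.53 ± 0.58, adjusted p = 0.000616). Hes1, a Notch target repressor, was likewise lower with each cytokine alone, at 5.72 ± 1.51 TPM with anti-CD40, 1.08 ± 0.714 with IL-4, 2.07 ± 0.465 with IL-21 and 6.30 ± 0.592 with both (departure 2.98 ± 0.33). The summed effects on Hes1 pointed to a value just below 0 (-0.116 on the log2(TPM + 1) scale). Cd274, encoding the checkpoint ligand PD-L1 and named after its values were seen, was at 10.2 ± 1.85 TPM with anti-CD40, 4.78 ± 1.20 with IL-4, 4.11 ± 0.669 with IL-21 and 10.2 ± 0.0819 with both (departure 2.10, adjusted p = 0.00021). Bcl6, the germinal centre repressor, was at 20.2, 20.1 and 27.8 TPM with anti-CD40, at 5.84, 2.29 and 1.35 TPM with IL-4, at 29.6, 36.9 and 23.7 TPM with IL-21 and at 20.1, 19.9 and 19.7 TPM with both. The IL-4 libraries of Bcl6 lay below all others, and the combination was above them by 2.48 (adjusted p = 2.25e-07).

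The other large departures above the sum were of genes that fell. Cd36 (3.63 ± 0.57) and Plxnd1 (3.29 ± 0.80) also had summed effects that pointed below 0 TPM. Plxnd1, a semaphorin receptor, was at 4.57, 6.45 and 6.12 TPM with anti-CD40 and at 0, 0 and 2.43 TPM with both. Marcks, a substrate of protein kinase C, was at 169, 183 and 227 TPM with anti-CD40, at 7.92, 9.09 and 7.02 TPM with IL-21 and at 38.2, 36.2 and 39.7 TPM with both (departure 3.10 ± 0.32). For Marcks, adding IL-4 to IL-21 gave the higher level, by 2.12 (adjusted p = 5.2e-07).

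Departures below the sum included responses to 1 cytokine that were smaller with the other present. Ccl17, a chemokine for T cells and a known target of IL-4, was at 0.183, 0 and 0.337 TPM with anti-CD40, at 8.43, 13.9 and 14.0 TPM with IL-4 and at 0.429, 0 and 0.169 TPM with both. The combination overlapped the controls and lay below every IL-4 library (-3.43, adjusted p = 4.97e-10). Ighe, the IgE heavy chain constant gene, was at 43.1, 14.6 and 11.2 TPM with IL-4 and at 2.55, 1.30 and 2.09 TPM with both, against 0.213, 0.108 and 0.118 TPM with anti-CD40 (departure -2.68 ± 0.43, adjusted p = 0.000435). Tmem176b, an intracellular ion channel protein, was at 118 ± 50.0 TPM with IL-4 and at 27.6 ± 2.34 TPM with both, against 28.9 ± 3.85 TPM with IL-21 (difference from IL-4 -1.98, adjusted p = 0.00147). Ighg1, the other IL-4-directed isotype in the panel, had no called departure (-0.29 ± 0.60, adjusted p = 0.819).

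In the other direction, responses to IL-21 were smaller with IL-4 present. Tbx21, encoding T-bet, was at 0.360, 0.242 and 0.625 TPM with anti-CD40, at 42.3, 44.9 and 33.6 TPM with IL-21 and at 7.39, 6.22 and 5.60 TPM with both (departure -2.15 ± 0.30, adjusted p = 0.000104). The combination was above the controls and below IL-21 alone without overlap. Serpinb7, a serine protease inhibitor, was at 6.79, 6.80 and 10.6 TPM with IL-21 and at 0.0345, 0.0290 and 0.0273 TPM with both. Rflnb, a filamin-binding protein, had the largest departure below the sum (-3.78 ± 0.40): 0.174, 0.517 and 0.254 TPM with anti-CD40, 24.5, 29.7 and 23.0 TPM with IL-21 and 5.50, 5.46 and 6.95 TPM with both. Cd86, the costimulatory ligand, rose with both from 2.61 ± 0.741 to 15.8 ± 0.576 TPM and was at 30.2 ± 7.85 TPM with IL-21 alone (departure -1.74 ± 0.30).

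The gene lists, drawn up with earlier results of these libraries known, are described by their counts beside the 14.5% of tested genes called higher and the 9.6% called lower, and by their median beside the median of 0.09 over all genes. Departures are set against 3.33% above and 2.48% below. Without IL-4 replicate 1 some lists had more members above the sum, among them 11 in place of 4 of the 18 CD40 and NF-kB genes and 10 in place of 3 of the 16 mature B cell genes. Of the IL-21 and STAT3 response list, 9 of 11 tested members were higher and 0 lower (median 2.10); besides Socs3 and Nfil3 they included the mucin Muc1 (4.15) and the kinase Pim1 (3.12). Batf, an AP-1 factor needed for class switching, rose by 2.45 ± 0.12. Of the IL-4 and STAT6 list, 7 of 15 were higher and 4 lower (median 0.42): Cish, Ighg1, Socs1 and Il4ra rose, while Fcer2a, encoding CD23, fell from 878, 748 and 1021 TPM to 139, 155 and 152 TPM. Fcer2a was not changed by IL-4 alone at the threshold (1676, 719.7 and 461 TPM) and was at 66.9, 97.4 and 50.7 TPM with IL-21. The chemokine Ccl22 fell by 2.55.

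Of the receptor chains, 3 of 17 were higher and 6 lower (median -0.36). The receptors of both ligands rose, Il4ra from 70.2 ± 14.1 to 233 ± 6.42 TPM and Il21r from 127 ± 24.6 to 342 ± 5.99 TPM (1.73 ± 0.45 and 1.43 ± 0.36). Il9r fell by 4.92 and Il6ra by 1.64, both receptors for other cytokines. Of the JAK and STAT genes, 3 of 11 were higher and 1 lower: Stat5a rose by 2.44, Stat3 by 1.42 and Jak1 by 0.99, and Jak2 fell by 0.74. The Jak1 call was lost under 3 of 15 alternative settings and that of Jak2 under 1. With median-of-ratios rescaling that list had 4 higher and 4 lower, so its balance depends on scaling. Of the SOCS and feedback list, 7 of 14 were higher and 2 lower, the latter Socs5 and the ERK phosphatase Dusp6 (-2.73).

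Genes of plasma cell differentiation were mixed, with 7 of 13 higher and 3 lower (median 0.59). Prdm1, encoding the master regulator BLIMP-1, rose from 0.478 ± 0.0950 to 2.67 ± 0.610 TPM (1.30 ± 0.21) and Xbp1, the secretory regulator, from 7.02 ± 3.43 to 15.2 ± 1.60 TPM (1.09 ± 0.37, adjusted p = 0.0326). The Xbp1 call was lost under 3 alternative settings that kept all libraries and in 5 of the 6 fits that left out 1 library of these groups. Derl3, of the endoplasmic reticulum degradation pathway, rose by 2.92 and Tent5c, which stabilises immunoglobulin mRNA, by 2.80, whereas Irf4 fell from 66.8 ± 11.5 to 25.5 ± 1.63 TPM (-1.35 ± 0.33) and Slamf7 by 2.18. Of the mature B cell identity list, 8 of 16 were lower and 2 higher (median -0.93). The falls were led by Cr2, the Fc receptor-like gene Fcrl1 (-3.56), the IgM Fc receptor Fcmr (-3.09) and Cd72 (-2.68). Bach2 (1.37 ± 0.28) and Pou2af1 (1.43), both transcriptional regulators, rose. Pax5 had a difference of -0.71 ± 0.38 (adjusted p = 0.188). Of the germinal centre list, 1 of 11 was higher and 2 lower.

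Of the T-bet and atypical B cell list, 5 of 11 were higher and 2 lower, and 5 departed below the sum against 1 above. Zeb2, a partner of T-bet, rose by 2.60 and Tbx21 by 2.40 ± 0.21, while Cd80 fell from 10.4 ± 0.929 to 0.658 ± 0.298 TPM (-2.79 ± 0.21). Of the costimulatory ligands, 2 of 12 were higher and 2 lower, Cd86 and Cd83 against Icosl and Cd80. Of the CD40 and NF-kB list, 6 of 18 were lower and 2 higher (median -0.46); the survival gene Bcl2a1b fell by 2.19 and Nfkbia by 1.13. Of the MHC class II list, 0 of 11 were higher and 3 lower, H2-Oa (-1.93), H2-Ob (-0.998) and Ctss (-0.56), of which the former pair inhibit peptide loading. The H2-Ob call was lost under 6 of 15 alternative settings and that of Ctss under 2, median-of-ratios rescaling among them. Of the chemokines and trafficking receptors, 6 of 15 were lower, including Ccr7 (-2.92) and Ccl5 (-2.91), and 2 higher. Of the cytokines and TNF ligands, 4 of 9 were lower, Ltb, Il12a, Lta (-2.42) and Ebi3 (-1.33), and 2 higher, Csf1 (1.82) and Il10 (1.15 ± 0.20).

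Of the anti-apoptotic list, 6 of 12 were lower and 1 higher (median -0.64). Bcl2 fell from 13.9 ± 2.92 to 4.80 ± 0.373 TPM and Bcl2a1b from 1035 ± 202 to 224 ± 24.0 TPM. The paralogues Bcl2a1a, Bcl2a1b and Bcl2a1d are near-identical, so reads may be shared among them and their separate values are uncertain. Of the pro-apoptotic list, 5 of 11 were higher and 2 lower: Casp8 rose by 1.93 and Bcl2l11, encoding BIM, by 1.55, while Fas fell by 1.56 and Bid by 1.97. Of the p53 targets, 4 of 13 were higher and 3 lower. Of the interferon-stimulated genes, 7 of 14 were lower, led by Gbp3 (-2.94) and Gbp2 (-2.43), and 1 higher, Oas1a (0.85).

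Of the S phase list, 18 of 22 were higher and 0 lower (median 1.20), with the largest for the G1/S cyclin Ccne1, from 4.12 ± 1.18 to 38.1 ± 2.44 TPM. Of the G2 and mitosis list, 16 of 18 were higher and 0 lower (median 1.66), with the largest for Ccnb1, from 1.44 ± 1.24 to 12.5 ± 1.47 TPM. A departure below the sum was called for 9 of 22 and 6 of 18, and one above for 0 in either list. After median-of-ratios rescaling the departures below were 18 and 9. IL-21 alone gave means of 39.3 ± 11.2 TPM for Ccne1 and 14.7 ± 3.75 TPM for Ccnb1. Of the cyclin-dependent kinase inhibitors and G1 cyclins, 4 of 11 were higher and 2 lower, and the inhibitor Cdkn2d rose most, by 3.09. The anti-CD40 libraries were also those with the larger ribosomal protein share, 23.14% to 27.08% against 20.44% to 20.95%; its part in these rises was not tested, and with the same 3 classes of transcript removed 16 of 22 and 15 of 19 were higher and 0 lower.

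Of the endoplasmic reticulum chaperones, 13 of 19 were higher and 0 lower (median 1.22), and 0 departed from the sum in either direction (2 above without IL-4 replicate 1). Sdf2l1, an HSPA5 cofactor, rose from 60.0 ± 10.2 to 397 ± 23.9 TPM and Manf, a secreted stress factor, from 47.4 ± 5.98 to 270.2 ± 22.6 TPM. Of the amino acid and ATF4 list, 10 of 16 were higher and 0 lower (median 1.15), including the transporter Slc7a5 (1.77). Of the cholesterol synthesis list, 9 of 21 were higher and 0 lower. Of the MYC and ribosome biogenesis list, 8 of 20 were higher and 0 lower, and Myc itself had a difference of -0.37 ± 0.34 (adjusted p = 0.486). Of the glycolysis list, 5 of 17 were higher, led by Ldha (1.63), and 1 lower, Pdk1 (-0.95). Of the immunoglobulin constant genes, 2 of 12 were higher, Ighg1 and Ighe, and 4 lower, Ighd and the 3 lambda constant genes, of which some may share reads.

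Of the list of tryptophan enzymes and secreted effectors, assembled from genes already known to respond in these samples and so no independent evidence, 9 of 15 were higher and 4 lower. For 9 the departure was above the sum and for 0 below. Its falls were Anxa1 (-3.17), S100a10, S100a11 (-1.72) and Kynu (-1.71). S100a10 was at 16.6, 20.1 and 11.98 TPM with anti-CD40 and at 7.15, 5.11 and 0 TPM with both, 1 library being listed at 0. Its call was lost under 6 of 15 alternative settings (largest adjusted p = 0.187). S100a4 and S100a6 thus rose while S100a11 of the same calcium-binding family fell. Kynu, which acts downstream of the IDO enzymes, fell while Ido1 and Ido2 rose.

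**Figure D4:**
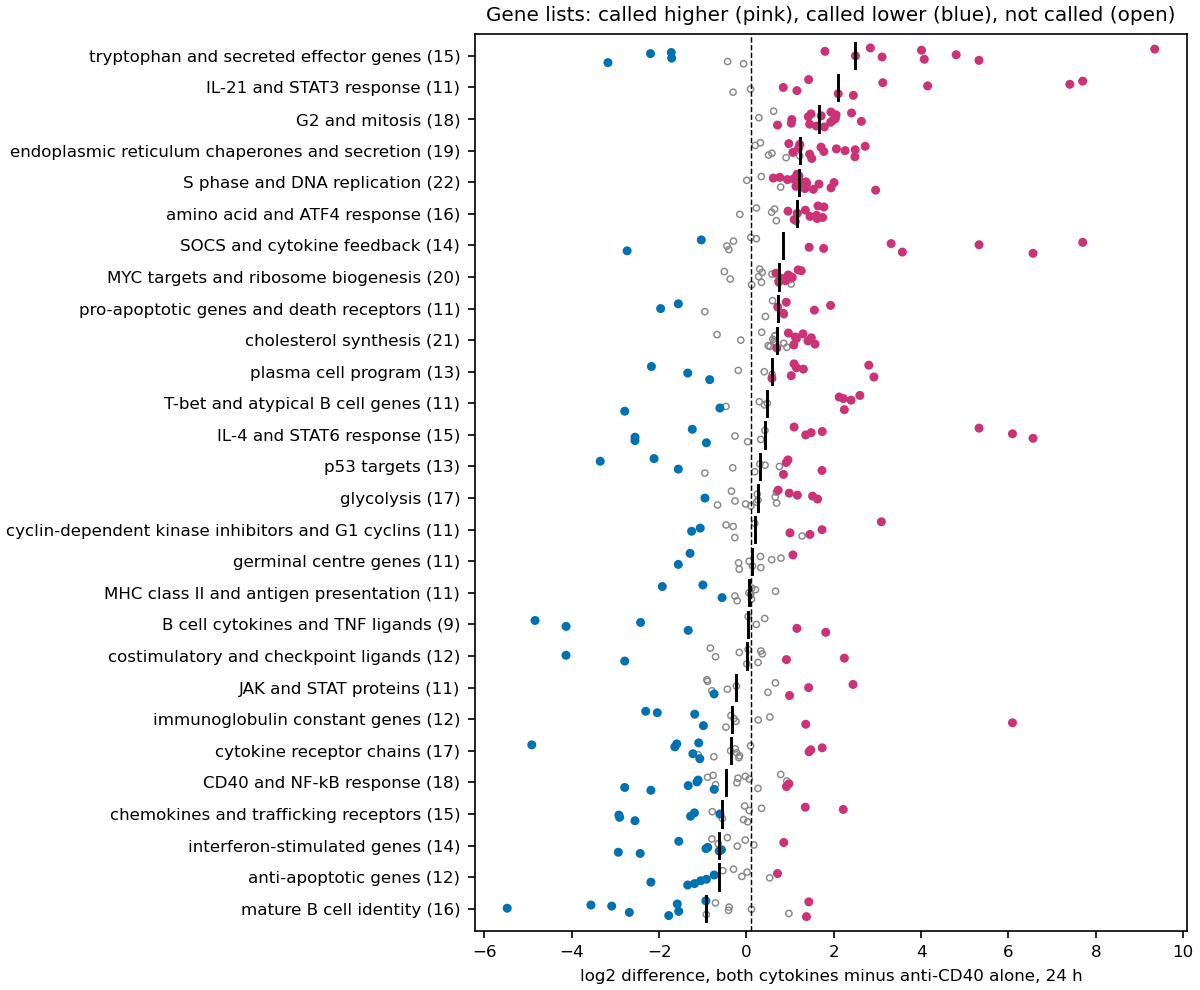
Log2 difference between both cytokines and anti-CD40 alone at 24 h for each tested member of the 28 gene lists, with the number tested in brackets: pink points were called higher, blue points lower and open points not called, the black bars are list medians and the dashed line is the median of all genes, 0.09. The secreted effector and IL-21 response lists have the highest medians (2.50 and 2.10), the S phase, mitosis and chaperone lists hold no called lower member, and the mature B cell identity list has the lowest median (-0.93).

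The same comparison at 6 h changed 1532 genes, 12.6% of those tested. The difference between the 24 h and the 6 h effect was called for 789 genes (6.5%), 512 upward (4.22%) and 277 downward (2.28%). The upward share was 64.9% as deposited and 52.6% with mitochondrial, ribosomal and pseudogene transcripts removed. The largest upward changes were of S100a6, Slpi, Pltp and Btnl1. S100a6 was lower with both cytokines at 6 h (5.91 ± 1.78 TPM against a mean of 16.3 TPM with anti-CD40, -1.35 ± 0.24) and higher at 24 h (4.01 ± 0.24), a change of 5.36 ± 0.34 (limma adjusted p = 2.7e-09). Slpi was already raised at 6 h, to 35.7 ± 12.7 TPM, and its effect grew by 5.27 ± 0.45. Pltp and Btnl1 had 6 h differences of 0.13 and 0.19, neither called, and 24 h differences of 4.80 and 4.37.

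Among genes with a name, the largest downward change was of Epb41l4b, a band 4.1 cytoskeletal protein, which was at 26.0 ± 1.97 TPM with both cytokines and 0.644 TPM with anti-CD40 at 6 h, and at 0.414 ± 0.279 and 0.570 ± 0.162 TPM at 24 h (-4.28 ± 0.34). Cr2, Trim7 and the translation inhibitor Pdcd4 followed (-3.62, -3.59 and -3.50). Cr2 was already lower at 6 h (-1.85), while the 6 h differences of Trim7 (-0.47) and Pdcd4 (-0.54) were not called. Their means with anti-CD40 were 26.9, 12.5 and 4.23 TPM at 6 h and 140, 46.9 and 18.3 TPM at 24 h. With both cytokines they were 6.73, 9.17 and 2.35 TPM at 6 h and 2.22, 1.88 and 0.110 TPM at 24 h. Batf and Il10 had larger effects at 6 h than at 24 h (4.33 against 2.45, and 2.52 against 1.15), and both changes were called (adjusted p = 8.06e-08 and 0.0032). Socs3, Cish and Nfil3 stayed high, at 6.28, 5.77 and 6.34 at 6 h.

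The genes changed by the combination and by neither cytokine alone were chosen on their 24 h values, so their change with time is given as a description. Of the 12 named, Rnf19b, Nabp1 and Ncoa3 were higher with both cytokines at 6 h (2.36, 3.58 and 1.92), and S100a4 was lower (-1.51 ± 0.27). The other 8 had 6 h differences between -0.41 and 0.78, none called. Nabp1 was at 211 ± 19.1 TPM with both cytokines at 6 h and at 75.3 ± 8.69 TPM at 24 h, the one member of the 12 whose combined effect was smaller at the later time by a called amount (-1.65 ± 0.25).

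**Figure D5:**
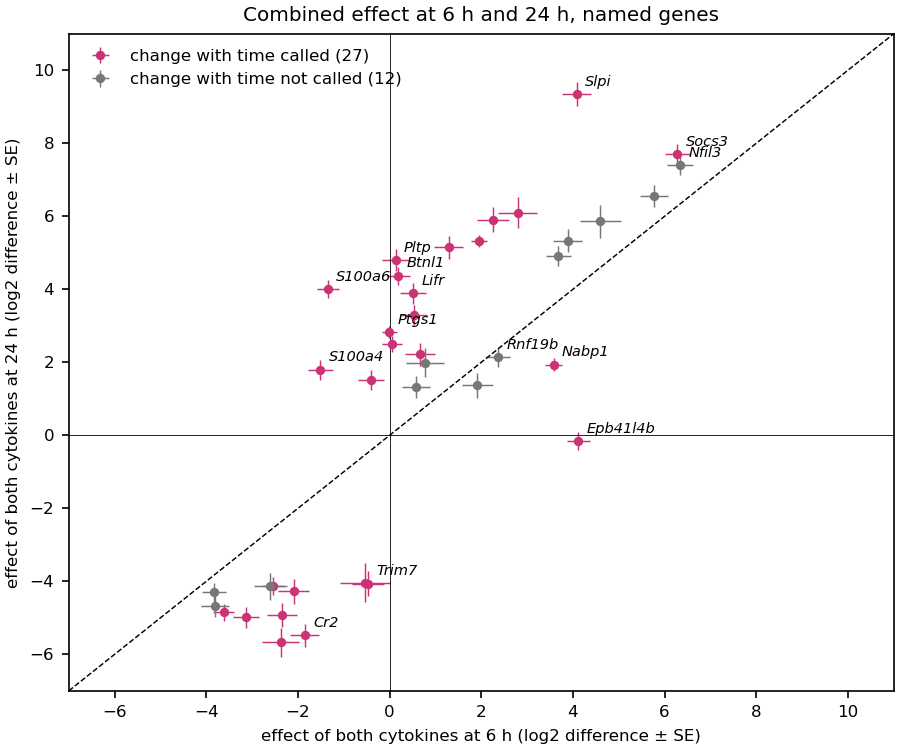
Effect of both cytokines against anti-CD40 alone at 6 h (horizontal) and 24 h (vertical), log2 differences with standard errors, for the named rises, falls, combination genes and genes with the largest change in time; pink points changed between the times by a called amount, grey points did not, and the dashed line marks equal effects. S100a6, Slpi, Pltp and Btnl1 lie far above the line, Epb41l4b far below it, and S100a4 moves from -1.51 to 1.80.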

How the data were processed

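Polyadenylated RNA was sequenced from 27 libraries in 9 groups of 3. The authors deposited 1 table of TPM per gene, and per the submitters' processing notes Salmon 1.9.0 and the mouse build GRCm38/mm10 were used; how the steps were joined is not given in the sources used here. TPM sums to a fixed total, so the depth per library is unknown and no counting interval is given. Symbols came from GENCODE M21 for 35301 of 35604 genes. The 12147 genes that reached 1 TPM in 3 or more libraries were analysed as log2(TPM + 1) with limma 3.58.1 in R 4.3.3, using 1 mean per group, a variance trend, 18 residual degrees of freedom and Benjamini-Hochberg adjustment over all tested genes. The calculation was tested on simulated data. All effects at 24 h share the anti-CD40 libraries. The departure from the sum is the effect of both cytokines minus the IL-4 effect minus the IL-21 effect.

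The text names the 12 largest rises and falls with at least 5 TPM and no overlap, up to 12 combination genes, the 5 largest departures and 4 largest time changes of each sign, up to 4 called members per list and any of opposite direction, and a panel of regulators. Unnamed gene models, pseudogenes and immunoglobulin segments were passed over. Genes, lists and comparisons were chosen with earlier results of these data known. Alternatives covered the pseudocount, the filter, scaling, the variance model, the libraries fitted, a replicate block and leaving out each library. Their effect is given at the end.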

Additional observations from a re-analysis of the deposited data

Results flagged for a closer look

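Tests of a difference between effects singled out the following values, given here with no explanation. The effect of both cytokines differed from the sum of the single effects for 705 genes. It differed between 6 h and 24 h for 789 genes (limma adjusted p below 0.05 in both cases). The named time changes on the log2 scale were 5.36 for S100a6, 5.27 for Slpi, 4.67 for Pltp, 4.18 for Btnl1, -4.28 for Epb41l4b, -3.62 for Cr2, -3.59 for Trim7 and -3.50 for Pdcd4. S100a6 was lowered at 6 h and raised at 24 h, both by a called amount.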

How the results depend on the processing

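The number of genes changed by both cytokines was 2924, and 2517 to 3768 under the planned settings that kept all libraries. Leaving out 1 library gave 2250 to 2496. The share of called genes that were higher was 52.7% without anti-CD40 replicate 2, 53.1% after median-of-ratios rescaling and 44.6% without mitochondrial, ribosomal protein and pseudogene transcripts, against 60.1%. The 705 departures from the sum became 1344 after median-of-ratios rescaling, 289 with only the compared groups fitted, and 501 to 2460 with 1 library left out, the highest without IL-4 replicate 1. An alternative added after seeing the data, which left out the naive and IL-4 libraries with the lowest mitochondrial share, gave 3015 departures and 1308 time changes. The 789 time changes became 1348 with only the compared groups fitted and 558 to 637 with 1 library left out. The 26 combination genes became 13 at a pseudocount of 0.1 and 18 to 33 with 1 library left out; the cause of these shifts was not tested. No named value past the threshold reversed under any setting run.

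With the replicate number as a block the counts were 3198, 892, 26 and 972 in place of 2924, 705, 26 and 789. The correlation of same-numbered libraries was over 0.1 in 0 of 3 pairs for the effect of both cytokines, in 3 of 18 for the departure (-0.258 to 0.41) and in 5 of 18 for the time change (-0.0432 to 0.265). Since not every pair exceeded it, the numbers were not taken to pair the samples. Unknown depth limits what can be said of genes listed at or near 0 TPM, and 3 libraries per group limit the precision of each difference.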

Other observations

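Some genes changed by the combination and by neither cytokine alone were also higher in the uncultured naive cells, which were not part of the comparisons above, than with anti-CD40 alone at 24 h. The naive mean was at least 2 times the anti-CD40 mean for 12 of the 26 (46.2%) and for 1123 of all 12147 tested genes (9.25%). The 26 were chosen as higher than these same anti-CD40 libraries, which favours low anti-CD40 values, so the 2 shares are not a like comparison. For 1 of the 12 the anti-CD40 mean was 0. For 5 of the 12 the naive mean was at least 2 TPM, and for the other 7 it was lower than that. For 3 genes, Klf2, Abcg1 and Zbp1, it was at or above the mean with both cytokines. Klf2 was at 528 ± 205 TPM in naive cells, 24.5 ± 2.41 TPM with anti-CD40 and 117 ± 6.47 TPM with both (SD, n = 3 each). Zbp1 was at 28.0 ± 4.90 TPM in naive cells and 27.5 ± 3.21 TPM with both, and Abcg1 at 8.02 ± 3.02 and 6.65 ± 1.45 TPM. S100a4 was at 40.2 ± 11.6 TPM in naive cells, between the 18.5 ± 0.211 TPM of anti-CD40 and the 67.0 ± 5.25 TPM of both. Lgals3 was at 17.4 ± 1.86 TPM in naive cells and 22.5 ± 2.27 TPM with both.

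Slpi, the largest rise, was at 12.1 ± 5.91 TPM in naive cells against 0.0748 ± 0.0769 TPM with anti-CD40. Naive cells were not cultured, so time in culture and CD40 stimulation cannot be told apart in these values.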
